A study of Saccharomyces cerevisiae with 16 samples.

Results

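The 33 genes described here are the 32 subunits of the yeast 26S proteasome that are named *RPN*, *RPT*, *PRE*, *PUP* or *SCL1*, together with *RPN4* (YDL020C), the transcription factor that controls them. They were taken by systematic name from the 6844 genes of the deposited tables, and all 33 were among the 6404 genes that were tested. The rule goes by name alone. RNA was sequenced from 16 cultures of budding yeast, with 4 libraries each of *atg18∆*, *fab1∆*, *vph1∆* and wild-type cells, to compare 3 strains with disturbed vacuolar pH dynamics with wild-type cells. Each mutant carries a single NatMX-marked deletion. Wild-type cells and all 3 mutants share the DHY211 background, whose labels list *SAL1*+, *HAP1*+, *MKT1*(30G), *CAT5*(91M), *TAO3*(1493Q), *MIP1*(661T) and *RME1*(INS-308A). Fab1 is the lipid kinase that makes a signalling phosphoinositide of the vacuole membrane, Atg18 binds that lipid, and Vph1 is the subunit that places the v-ATPase, a proton pump, on the vacuole. All cells were grown at room temperature in SDC, a synthetic medium with dextrose and amino acids, to an optical density of 0.05, with duplicate cultures per strain and day over 2 days. Which replicates share a day is not in the labels, so p-values measure the spread between cultures within and across days alike. The study's text describes a growth defect in *fab1∆* and *vph1∆* but not in *atg18∆*.

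The proteasome is the protease that degrades proteins tagged with ubiquitin. Its core particle is a barrel of alpha rings, which gate the entry, and beta rings, which hold the proteolytic sites. The regulatory particle caps the barrel. Its base contains the Rpt ATPases that unfold and thread the substrate, and its lid contains the deubiquitinase Rpn11. Rpn4 activates the subunit genes through a short promoter element and is itself degraded by the proteasome within minutes, so that a drop in proteasome capacity raises Rpn4 protein without any need for more *RPN4* mRNA.

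The promoter element is shown first, because it is what the subunit genes share beyond the complex they build. GGTGGCAAA was searched on both strands from 250 bases before to 50 bases after the start codon, in the R64 reference genome, whose sequence is SacCer3. It was found in 27 of the 32 subunit promoters, which is 84.4%, against 72 of the 6001 promoters searched, or 1.2%. Each of the 27 promoters held 1 match, between 84 and 183 bases before the start codon with a median of 120 bases, and 19 of the matches lay on the strand of the gene and 8 on the opposite strand. The inner 8 bases, GTGGCAAA, which every longer match contains, were found in 30 of the 32 subunit promoters and in 144 of all promoters, or 2.4%. The windows below, with 10 bases on either side of the match in capitals, come from 2 beta subunit genes, 1 lid gene and 1 base gene with the whole element, then from 2 genes with only its inner 8 bases, and last from the polyubiquitin gene *UBI4*. They are shown because the first 3 genes and *UBI4* passed the test as higher in *fab1∆* cells when all libraries were kept, and the others did not. They were picked by this outcome and do not stand for the list. *PRE5*, which holds only the inner 8 bases, passed as well, as did *RPN10* and *RPN13*, which hold neither form.
PRE4 (chrVI:249959-249987, minus strand): tggtttagaaTTTGCCACCttaaatacgt
PRE7 (chrII:141150-141178, plus strand): aaactcaaagGGTGGCAAAaacaagcggt
RPN11 (chrVI:153259-153287, plus strand): ggacctccaaGGTGGCAAAttcacaagaa
RPN1 (chrVIII:164838-164866, minus strand): tgtgttttacGGTGGCAAAaggcgagcac
PUP1 (chrXV:631891-631918, minus strand): acccggccgaGTGGCAAAataccaaaaa
RPN8 (chrXV:817085-817112, minus strand): ggatacctcaGTGGCAAAtcgttactca
UBI4 (chrXII:65349-65377, minus strand): ggctccgggtTTTGCCACCtttgaattcg

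*PRE4* and *UBI4* hold the element on the opposite strand, so that its complement is read here. The 2 subunit genes with neither form in the window were *RPN10* and *RPN13*, which encode ubiquitin receptors of the regulatory particle. The difference between *fab1∆* and wild-type cells described below, with wild-type replicate 3 left out, had a median of 0.22 over the 27 genes with all 9 bases. Over the 5 without, of which *RPN8*, *PRE5* and *PUP1* hold the inner 8 bases, it was 0.23. Split by the inner 8 bases, the median was 0.22 over the 30 genes with them and 0.40 over *RPN10* and *RPN13*. The window of *RPN4* itself held neither form, nor TCCGCGGA, the element of the drug resistance factors Pdr1 and Pdr3, nor TTACTAA, the element of the stress factor Yap1. These were found in 0.217% and 7.45% of all promoters on either strand. Of the other lists, 1 of 18 promoters of assembly and accessory genes held the longer form (*ECM29*, named here after its promoter was read), and 3 of 15 ubiquitin and shuttle genes did (*UBI4*, *CDC48* and *UBA1*), as did 1 of the 4 activators of *RPN4* (*YAP1*).

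**Figure D1:**
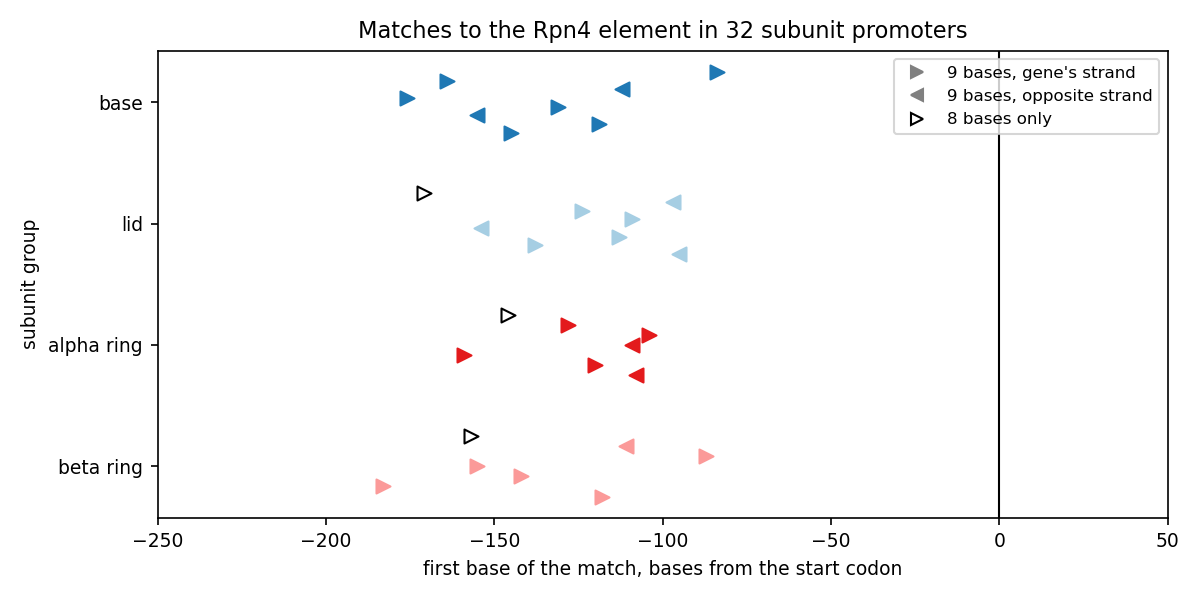
Position of each match in the 32 subunit promoters, with the first base of the match given as bases from the start codon (x axis) and the subunit group on the y axis. Filled triangles are matches to all 9 bases and open triangles to 8 bases only, and a triangle that points left is on the opposite strand. The 27 filled triangles lie between 84 and 183 bases before the start codon.

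Values are TPM, which divides the reads of a gene by its length and sums to 1000000 in each library, so that levels of different genes can be compared. Wild-type replicate 3 stood apart. Its top 10 genes took up 31.2% of all TPM, where the share was 14.4 to 15.9% in the other 15 libraries, and 32 of the 33 members had their lowest value of all 16 libraries in it. The study left out 1 wild-type sample for poor RNA quality without naming it, so all 16 libraries were kept and results are given with and without this one. Bulk RNA cannot tell fewer cells with a transcript from less of it per cell. *ATG18* and *VPH1* were at or near 0 in their own deletion strains, with TPM values of at most 0.0106 and 0.191, whereas *FAB1* was at 1.28 to 1.58 in *fab1∆* cells, below the 1.77 to 3.55 of the other 12 libraries but not at 0.

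Core subunits were the more abundant mRNAs. Their genes were also the shorter ones, with a median of 764.5 bases, against 1297.5 bases for the regulatory particle. The part of gene length in these levels was not tested. As means over the 16 libraries, the 14 core genes had a median of 123 TPM, from 93.9 TPM for *PUP1*, a catalytic beta subunit, to 218 TPM for *PUP3*, a structural beta subunit. In the alpha rings the range ran from 98.8 TPM for *PUP2* to 163 TPM for *PRE5*. The 18 genes of the regulatory particle had a median of 63.1 TPM. In the base, *RPN1* (YHR027C), the large scaffold on which ubiquitin shuttles dock, was lowest with 40.5 TPM and *RPN13* (YLR421C) highest with 152 TPM. Among the 8 lid members, *RPN9* was lowest with 49.7 TPM and *RPN8* highest with 74.5 TPM. *SEM1*, which the naming rule leaves out of the lid and which was kept with the assembly and accessory genes, had 283 TPM. Its value in wild-type replicate 3 was 538 TPM, the highest of the 16 libraries. *RPN4* was below every subunit gene, with 19.5 TPM.

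**Figure D2:**
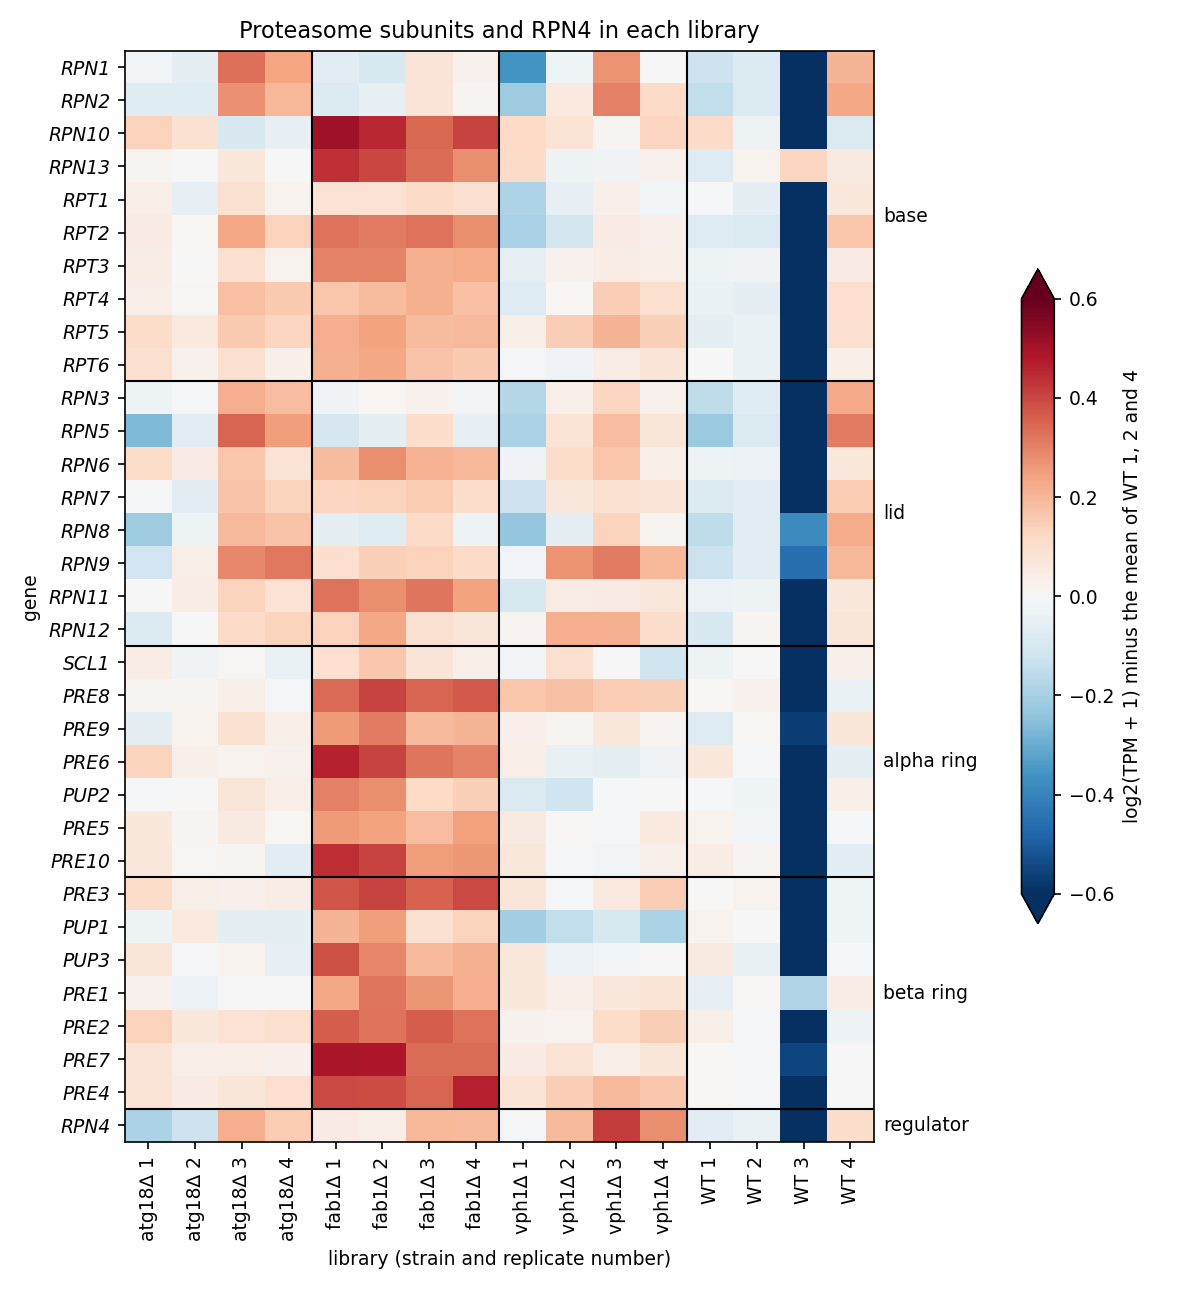
Level of each of the 33 genes (rows) in each of the 16 libraries (columns) as log2(TPM + 1) minus the mean of wild-type replicates 1, 2 and 4, with red higher, blue lower, and colours saturated beyond 0.6. The 4 *fab1∆* columns are red across the alpha and beta rings, and wild-type replicate 3 is blue in all rows but *RPN13*.

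Transcripts of the core particle were higher in *fab1∆* cells than in wild-type cells, and those of the lid mostly did not pass the test. The summed TPM of the 32 subunits was 3596, 3598, 3466 and 3452 in *fab1∆* cells, 3026, 2977, 3129 and 3056 in *atg18∆* cells, 2950, 3008, 3092 and 3062 in *vph1∆* cells, and 2914, 2911, 1731 and 3043 in wild-type cells. Every *fab1∆* library therefore lay above all 12 others, whereas *atg18∆* and *vph1∆* cells overlapped with the 3 higher wild-type libraries. The sum averaged 3528 ± 79.8 TPM in *fab1∆* cells and 2650 ± 615 TPM in wild-type cells (SD, n = 4 each, two-sided exact permutation test on log2 values, p = 0.0286, the smallest that 4 against 4 allows). Without wild-type replicate 3, the wild-type mean was 2956 ± 75.4 TPM (SD, n = 3) and the 2 strains still did not overlap, with an exact permutation p of 0.0571, the smallest that 4 against 3 allows.

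For single genes, log2(TPM + 1) was fitted with limma over all 6404 genes, and a gene was called at a Benjamini-Hochberg adjusted p under 0.05. In *fab1∆* against wild-type cells 16 of the 33 members were called higher and 0 lower, against 22.9% of all genes called higher. The median log2 difference of the members was 0.44, with 0.25 as the median of all genes. Of all genes, 1468 were called higher and 39 lower, and after each library was scaled to a common median, which moved the median of all genes to -0.076, 955 were called higher and 1489 lower. After that scaling, 11 members were called higher and 0 lower, against 14.9% of all genes called higher. Without wild-type replicate 3, 22 members were called higher and 0 lower, against 32.4% of all genes, and the medians were 0.22 for the members and 0.066 for all genes. A limma fit of the *fab1∆* and wild-type libraries alone called 0 members, against 8.06% of all genes called higher. In that fit 14 members had an unadjusted p under 0.05. The share of all genes at that level was not computed, so this count has no background to be set against. With all 4 strains but without *fab1∆* replicate 1 the count was 9, against 17.1% of all genes called higher.

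The 14 core genes made up most of the calls, with 12 called higher, and 13 without wild-type replicate 3. All 4 *fab1∆* libraries lay above all 4 wild-type libraries in each of the 14, and in 24 of the 33 members, against 32.6% of all genes. *PRE4* (YFR050C), a non-catalytic beta subunit, had 152, 151, 147 and 159 TPM in *fab1∆* cells, against 115, 114, 59.6 and 115 TPM in wild-type cells. Its log2 difference of 0.64 ± 0.16 (SE, limma adjusted p = 0.00851) became 0.40 ± 0.036 without wild-type replicate 3 (SE, limma adjusted p = 6.76e-07). *PRE7* (YBL041W), a structural beta subunit, had the smallest p of the members that were higher, with 138, 138, 124 and 124 TPM in *fab1∆* cells, against 98.6, 97.4, 66.7 and 98.4 TPM in wild-type cells. The difference was 0.55 ± 0.12 (SE, limma adjusted p = 0.00249), and 0.41 ± 0.042 without that library.

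The 3 catalytic subunits differed in their calls. *PRE3* (YJL001W), the subunit with caspase-like activity, had 190, 194, 187 and 193 TPM in *fab1∆* cells, against 147, 148, 82.4 and 144 TPM in wild-type cells, and *PRE2* (YPR103W), the subunit with chymotrypsin-like activity, had 149, 145, 149 and 145 TPM in *fab1∆* cells, against 118, 115, 62.3 and 113 TPM in wild-type cells. Both rose, by 0.59 ± 0.15 and 0.56 ± 0.15 on the log2 scale (SE, limma adjusted p = 0.00746 and 0.0133), and by 0.38 and 0.34 without wild-type replicate 3. *PUP1* (YOR157C), the subunit with trypsin-like activity, had 112, 116, 103 and 106 TPM in *fab1∆* cells, against 98.5, 97.2, 44.9 and 95.3 TPM in wild-type cells. Its *fab1∆* libraries lay above the wild-type ones, but it was not called with all libraries (limma adjusted p = 0.0924) and was called without wild-type replicate 3 (limma adjusted p = 0.00768). Of the remaining beta genes, *PUP3* rose by 0.49 ± 0.15 and *PRE1* by 0.30 ± 0.081 (SE), or by 0.27 and 0.26 without that library, but *PRE1* turned to -0.025 after median scaling and to -0.036 once a trend with gene length was removed.

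Of the 7 alpha genes, *PRE8* (0.55 ± 0.13), which had the second smallest p of the higher members, *PRE6* (0.56 ± 0.14), *PRE10* (0.56 ± 0.16), *PRE5* (0.49 ± 0.17), *PUP2* (0.39 ± 0.14) and *PRE9* (0.38 ± 0.12), the one alpha subunit that yeast can live without, were called higher (log2 difference ± SE). The same 6 were called without wild-type replicate 3, with differences between 0.21 and 0.37. *SCL1* was not called, with 134, 140, 132 and 129 TPM in *fab1∆* cells, against 122, 125, 65.8 and 128 TPM in wild-type cells.

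The regulatory particle gave fewer calls. With all libraries 4 of its 18 genes were called higher, a share near the 22.9% of all genes, and without wild-type replicate 3 it was 9 of 18, against 32.4% of all genes. *RPN10* (YHR200W), a ubiquitin receptor at the seam of base and lid, had 129, 124, 115 and 120 TPM in *fab1∆* cells, against 97.9, 88.4, 39.3 and 85.1 TPM in wild-type cells, and its difference of 0.72 ± 0.20 (SE, limma adjusted p = 0.0144) was the highest of the 33 members, with 0.43 ± 0.063 (SE) without wild-type replicate 3. *RPN13*, also a ubiquitin receptor gene, had 190, 185, 177 and 170 TPM in *fab1∆* cells, against 133, 142, 153 and 145 TPM in wild-type cells, where it was the one member that was not reduced in replicate 3. It rose by 0.33 ± 0.083 (SE, limma adjusted p = 0.00841), but the difference was -0.010 once the trend with gene length was removed, all libraries kept. *RPT2*, the ATPase whose tail opens the gate of the core, rose by 0.52 ± 0.16 (SE), or by 0.31 without that library. *RPN11*, the deubiquitinase, was the only lid gene called with all libraries kept, and *RPN6*, a lid scaffold subunit, was called as well without wild-type replicate 3. *RPN11* had 76.1, 73.5, 75.7 and 71.8 TPM in *fab1∆* cells, against 59.1, 59.3, 37.6 and 63.1 TPM in wild-type cells. The difference was 0.46 ± 0.13, and 0.29 ± 0.048 without that library (SE).

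The least abundant base mRNA and the most abundant lid mRNA overlapped between the strains. *RPN1* had 39.2, 38.5, 43.4 and 41.9 TPM in *fab1∆* cells, against 37.7, 38.8, 16.5 and 47.5 TPM in wild-type cells. *RPN8*, which pairs with Rpn11 in the lid, had 72.7, 71.7, 81.8 and 73.8 TPM in *fab1∆* cells, against 67.7, 72, 57.6 and 88.1 TPM in wild-type cells. In both genes wild-type replicate 4 was above every *fab1∆* library.

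**Figure D3:**
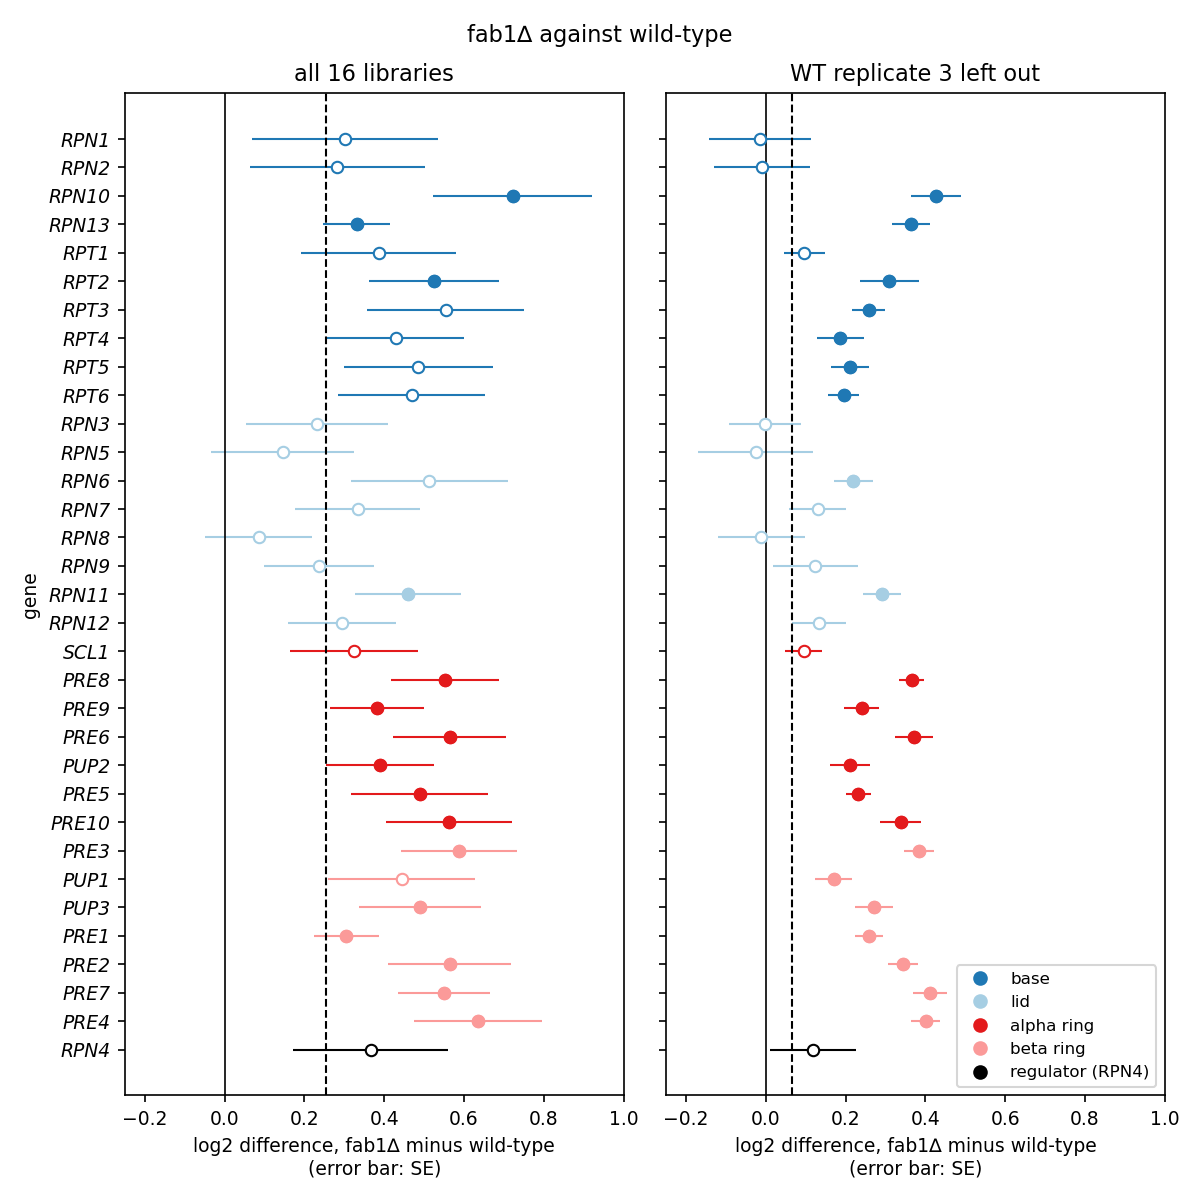
Log2 difference of each member between *fab1∆* and wild-type cells (x axis, *fab1∆* minus wild-type, bars are SE), with all libraries on the left and without wild-type replicate 3 on the right. Filled points passed an adjusted p of 0.05 in limma, and the dashed line is the median of all genes, 0.25 on the left and 0.066 on the right. Alpha and beta ring genes are filled in both panels except *SCL1* in both and *PUP1* on the left.

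The same genes were compared between mutants, which does not use the wild-type level. In *fab1∆* against *atg18∆* cells the members' median log2 difference was 0.19, with 0.024 as the median of all genes, and in *vph1∆* against *fab1∆* cells it was -0.21, with -0.0049 for all genes. Since all 16 libraries share 1 estimate of the spread, only *RPN13* (0.34) and *PRE1* (0.26) were called higher in *fab1∆* than in *atg18∆* cells, against 10.3% of all genes, and only *RPN13* (-0.34) was called lower in *vph1∆* than in *fab1∆* cells, against 5.76% of all genes. Leaving wild-type replicate 3 out changes none of these differences but narrows the spread, and then 20 members were called higher in *fab1∆* than in *atg18∆* cells, against 30.8% of all genes, and 21 lower in *vph1∆* than in *fab1∆* cells, against 25.7% of all genes. By replicate number, the subunits' mean difference in *fab1∆* against *atg18∆* cells was 0.22 for replicates 1 and 2 and 0.11 for 3 and 4. Against wild-type cells it was 0.27 and 0.58. The 0.58 includes wild-type replicate 3, where the mean log2 level of the subunits was 5.59, against 6.49 in wild-type replicate 4. In *fab1∆* replicates 3 and 4 this level was 6.63 and 6.61. In 20 of the 33 members all 4 *fab1∆* libraries lay above all 12 others, against 18.1% of all genes. These were 13 of the 14 core genes, all but *SCL1*, and 7 of the 18 genes of the regulatory particle.

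The core and regulatory particle genes also differ in length, and length moved with the difference across the whole transcriptome. Core genes were 597 to 867 bases long with a median of 764.5 bases, and regulatory particle genes were 471 to 2982 bases long with a median of 1297.5 bases. Spearman's rho between length and the *fab1∆* minus *atg18∆* log2 difference was -0.74 over the 32 subunits and -0.50 over the 5769 genes with a length. These are descriptions across genes, which share their libraries and are not replicates. The 2 longest genes, *RPN1* and *RPN2*, had the lowest levels in *fab1∆* relative to *atg18∆* cells among the subunits of the base. With the length trend removed by loess and wild-type replicate 3 left out, 14 members were called higher and 0 lower in *fab1∆* cells relative to wild-type cells, against 23% of all genes called higher, and 7 of these were core genes and 7 regulatory particle genes. The median was then 0.11 for the core, 0.090 for the regulatory particle and -0.028 for all genes. *PRE4*, *PRE7*, *PRE8*, *RPN10* and *RPT2* were among the 14, with differences of 0.22, 0.22, 0.18, 0.24 and 0.21. In *fab1∆* against *atg18∆* cells the same fit called 11 members higher and 0 lower, against 24.4% of all genes. The part of fragment length or RNA integrity in the length trend was not tested.

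**Figure D4:**
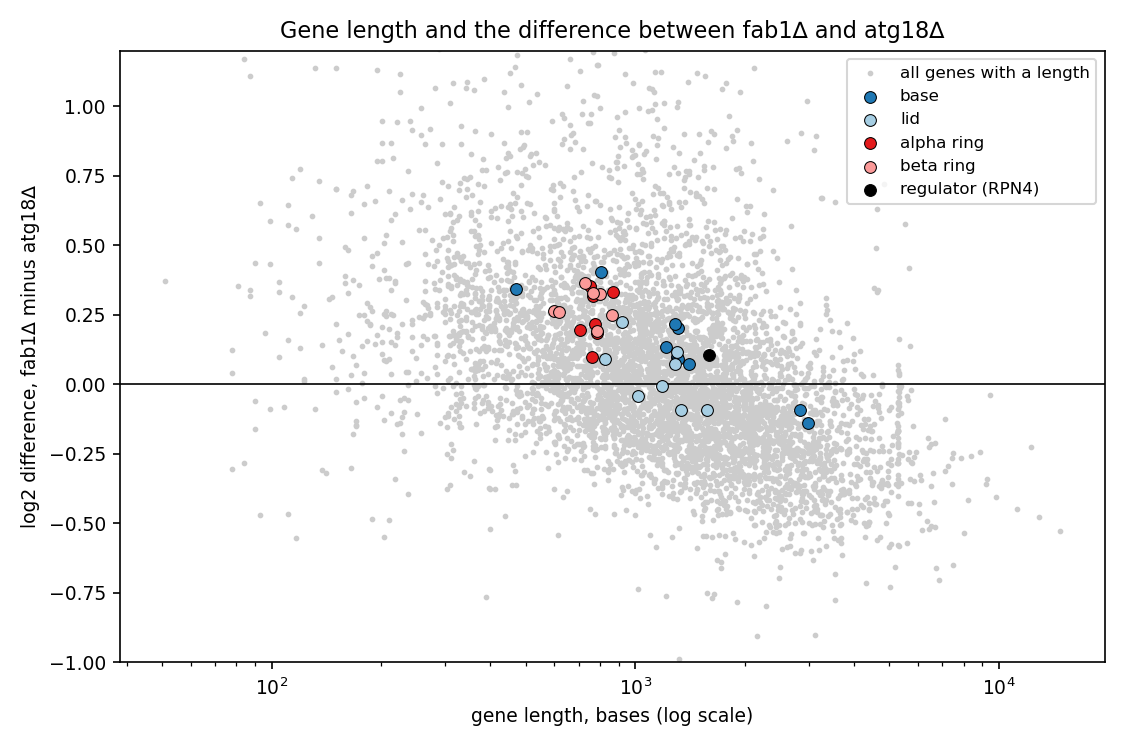
Gene length in bases (x axis, log scale) and the log2 difference between *fab1∆* and *atg18∆* cells (y axis, *fab1∆* minus *atg18∆*) for the 33 members in colour and the 5769 genes with a length in grey, of which 81 lie outside the y range. The core genes, in red and pink, sit among the shorter genes and all above 0, and the long *RPN1* and *RPN2* lie below 0.

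In *atg18∆* cells no member passed the test against wild-type cells. With limma, 0 members were called higher or lower, against 0.0312% of all genes called higher. An unadjusted p under 0.05 was found in 0 members and in 405 of the 6404 genes. The median difference of the members was 0.26, with 0.27 for all genes. Without wild-type replicate 3, 0 members were called, and 2 members and 380 of the 6404 genes had an unadjusted p under 0.05. The medians of members and of all genes were then both 0.046. The smallest p values of the members were those of *RPT5*, a base ATPase, with a difference of 0.39 ± 0.19, and *PRE2*, with 0.32 ± 0.15 (SE, limma adjusted p = 0.294 for both), and *RPN13* was the one member below 0, with -0.012 ± 0.083 (SE). Its sign turned to 0.020 without wild-type replicate 3.

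In *vph1∆* cells 0 members were called higher or lower against wild-type cells with limma, against 4.42% of all genes called higher. An unadjusted p under 0.05 was found in 6 of the 33 members and in 1486 of the 6404 genes. The median of the members was 0.24, with 0.27 for all genes. *PRE8* (YML092C) had the smallest p, with 128, 128, 126 and 125 TPM in *vph1∆* cells, against 115, 116, 67.5 and 111 TPM in wild-type cells, a difference of 0.35 ± 0.13 (SE, limma adjusted p = 0.155). The 2 strains did not overlap in this gene. All 4 *vph1∆* libraries lay above all 4 wild-type libraries in 3 of the 33 members, and all 4 *atg18∆* libraries did in 4 members, all of the beta ring. The share over all genes was not computed for these 2 counts, so they cannot tell whether the members or the beta ring stand out. Without wild-type replicate 3, *PRE8* (0.16) and *PRE4* (0.15) were called higher, against 11.6% of all genes, and *PUP1* was called lower, against 3.12% of all genes, with 84.2, 87.4, 90.6 and 84.8 TPM in *vph1∆* cells, against 98.5, 97.2 and 95.3 TPM in wild-type replicates 1, 2 and 4. Neither higher call was made once the libraries were also scaled to a common median or the length trend was removed. *PUP1* (-0.25 and -0.24) and *RPT1* (-0.14 and -0.12), a base ATPase named after its values were seen, were then called lower, against 7.65% and 9.53% of all genes. Between *vph1∆* and *atg18∆* cells 0 members were called with all libraries, against 0.531% of all genes called higher. Here 0 members and 418 of the 6404 genes had an unadjusted p under 0.05. The summed TPM averaged 3028 ± 62.4 in *vph1∆* cells and 3047 ± 63.6 in *atg18∆* cells (SD, n = 4 each, two-sided exact permutation p = 0.686). With wild-type replicate 3 left out, *PRE8* was called higher in *vph1∆* than in *atg18∆* cells, by 0.15, against 8.87% of all genes, and *PUP1* lower, with a difference of -0.14, against 3.2% of all genes.

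*RPN4* was not called in any of the 6 comparisons. It had 16.3, 17.1, 21.9 and 20.9 TPM in *atg18∆* cells, 19.4, 19.2, 21.6 and 21.5 TPM in *fab1∆* cells, 18.6, 21.6, 25.4 and 22.9 TPM in *vph1∆* cells, and 17.8, 18.2, 8.92 and 20.2 TPM in wild-type cells. All 4 strains overlapped once wild-type replicate 3 was set aside, and in each mutant both of replicates 3 and 4 lay above both of replicates 1 and 2. In order of the mean, *vph1∆* cells had 22.1 ± 2.81 TPM, *fab1∆* cells 20.4 ± 1.32 TPM, *atg18∆* cells 19.1 ± 2.77 TPM and wild-type cells 16.3 ± 5.02 TPM (SD, n = 4 each), and the wild-type mean was 18.7 ± 1.28 TPM without replicate 3 (SD, n = 3). No neighbours in this order differed beyond their spread. The difference of *fab1∆* from wild-type cells was 0.37 ± 0.19 (SE, limma adjusted p = 0.184) and 0.12 ± 0.11 without that library, and that of *vph1∆* from wild-type cells was 0.47 ± 0.19 (SE, limma adjusted p = 0.176) and 0.22 ± 0.11. Between the mutants, *RPN4* differed by 0.10 ± 0.19 in *fab1∆* against *atg18∆* cells, by 0.21 ± 0.19 in *vph1∆* against *atg18∆* cells and by 0.10 ± 0.19 in *vph1∆* against *fab1∆* cells (SE, limma adjusted p = 0.795, 1.00 and 0.827). The difference of *atg18∆* from wild-type cells was 0.26 ± 0.19 and 0.015 ± 0.11 without wild-type replicate 3 (SE). The strain with the highest subunit sum, *fab1∆*, was thus not the one with the highest *RPN4* mean.

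*RPN4* and the mean log2 level of the 32 subunits were compared across libraries, in 6 relations that were adjusted together. Over all 16 libraries Pearson's r was 0.87 (permutation p = 0.00524, adjusted p = 0.0218) and Spearman's rho 0.60 (permutation p = 0.0159, adjusted p = 0.0239). Without the 2 libraries farthest from the median of *RPN4*, r was 0.44. Once wild-type replicate 3 was left out, r was 0.38 (permutation p = 0.166, adjusted p = 0.166) and rho 0.51 (permutation p = 0.0516, adjusted p = 0.062). Pearson's r over all libraries thus rested on that library, whereas rho was of similar size without it but missed the threshold. Within strains, with each library centred on its strain's mean and permuted within its strain, r was 0.79 over 15 libraries (permutation p = 0.00725, adjusted p = 0.0218), rho was 0.77 (permutation p = 0.0124, adjusted p = 0.0239), and r was 0.69 without the 2 farthest libraries. Centred on replicates 1 and 2 or 3 and 4 of each strain as well, r was 0.89 over 14 libraries. Each such pair of libraries then gives a single difference, counted with both signs, and no p-value was computed. The strains were not alike in this. In *atg18∆* and *vph1∆* cells replicates 3 and 4 were above replicates 1 and 2 in both *RPN4* and the subunit sum, whereas in *fab1∆* cells they were above them in *RPN4* and below them in the sum, with 3466 and 3452 TPM in replicates 3 and 4 and 3596 and 3598 TPM in replicates 1 and 2. Library composition differs between the same libraries, and its part in the relation was not tested.

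**Figure D5:**
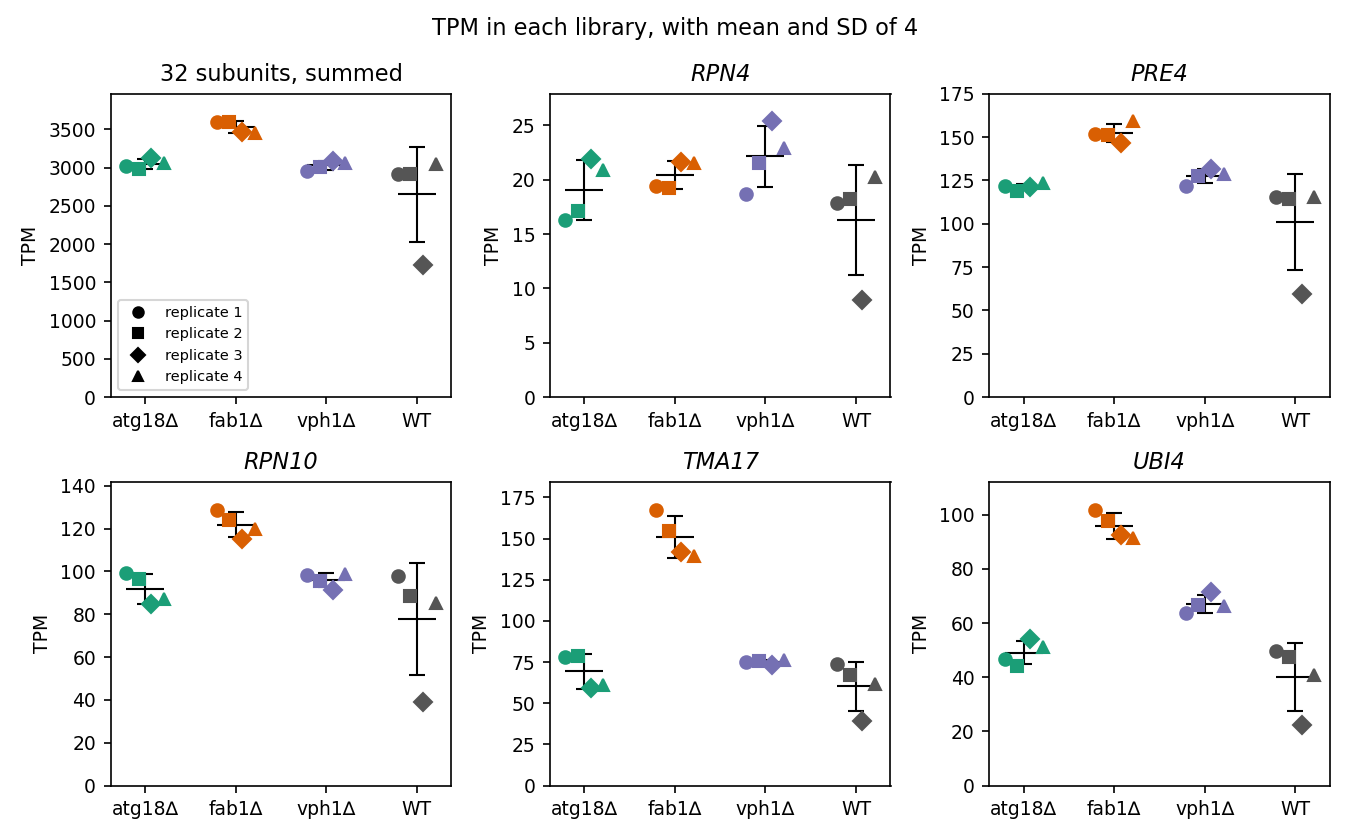
TPM in each library (y axis, from 0) by strain (x axis) for the sum of the 32 subunits, *RPN4*, *PRE4*, *RPN10*, *TMA17* and *UBI4*. Symbols are replicates and bars are the mean and SD of 4 libraries. The 4 *fab1∆* libraries lie above all 12 others in every panel but that of *RPN4*, and wild-type replicate 3 is the lowest library in all 6 panels.

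Genes that build and accompany the proteasome were examined next. Over the 18 assembly and accessory genes, the median difference of *fab1∆* from wild-type cells was 0.41, against 0.45 for the subunits. Without wild-type replicate 3, the medians were 0.24 and 0.23. With all libraries, *TMA17*, *FUB1* and *NAS2* exceeded the highest subunit difference of 0.72, and the lowest difference of the 18 was -0.063. Of 18 assembly and accessory genes, 8 were called higher and 0 lower in *fab1∆* against wild-type cells, where 22.9% of all genes were called higher. *TMA17* (YDL110C), a stress-induced chaperone for the assembly of the base ATPases, had 168, 154, 142 and 140 TPM in *fab1∆* cells, against 73.7, 67.2, 39.4 and 61.4 TPM in wild-type cells. Its difference of 1.34 ± 0.16 (SE, limma adjusted p = 1.61e-05) was 1.15 ± 0.099 without wild-type replicate 3. *TMA17* was also called higher in *fab1∆* than in *atg18∆* cells, by 1.12, and lower in *vph1∆* than in *fab1∆* cells, with a difference of -0.99. *UMP1* (YBR173C), the maturation factor of the core particle, had 172, 179, 173 and 173 TPM in *fab1∆* cells, against 118, 127, 112 and 117 TPM in wild-type cells, where replicate 3 lay close to the others. It rose by 0.55 ± 0.084 (SE, limma adjusted p = 0.000158).

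Of the other genes on that list, the base chaperones *NAS2* and *NAS6* rose by 0.74 ± 0.14 and 0.52 ± 0.086, the core chaperone *PBA1* by 0.70 ± 0.17, and the proteasome-associated *FUB1*, *SPG5* and *STS1* by 0.77 ± 0.13, 0.66 ± 0.18 and 0.45 ± 0.14 (SE). These 6 differences lay, without wild-type replicate 3, between 0.28 and 0.66, and 10 of the 18 genes were called higher, against 32.4% of all genes. In *fab1∆* against *atg18∆* cells, *UMP1* (0.52), *NAS2* (0.56), *NAS6* (0.39) and *FUB1* (0.52) were called higher as well, and *NAS6* was called lower in *vph1∆* than in *fab1∆* cells (-0.31). In *atg18∆* against wild-type cells limma called 0 of the 18 genes, and 0 had an unadjusted p under 0.05. In *vph1∆* against wild-type cells, *UMP1* (0.33 ± 0.084) and *SPG5* (0.70 ± 0.18) were called higher (SE, limma adjusted p = 0.0311 and 0.0329), against 4.42% of all genes called higher, and 6 of the 18 were called higher without wild-type replicate 3, against 11.6% of all genes. *UMP1* had 156, 148, 145 and 149 TPM in *vph1∆* cells, which put them between the *fab1∆* and wild-type libraries without overlap.

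Of 15 ubiquitin and shuttle genes, 5 were called higher and 0 lower in *fab1∆* against wild-type cells, against 22.9% of all genes called higher, and without wild-type replicate 3 it was 7, against 32.4%. *UBI4* (YLL039C), the stress-induced polyubiquitin gene, had 102, 97.8, 92.6 and 91.3 TPM in *fab1∆* cells, 63.6, 66.6, 71.4 and 66.3 TPM in *vph1∆* cells, 46.8, 44.4, 54 and 51.2 TPM in *atg18∆* cells, and 49.8, 47.7, 22.2 and 41 TPM in wild-type cells. The *fab1∆* libraries were highest and the *vph1∆* libraries lay between them and the overlapping *atg18∆* and wild-type ones. It rose by 1.30 ± 0.18 in *fab1∆* and by 0.79 ± 0.18 in *vph1∆* against wild-type cells (SE, limma adjusted p = 7.66e-05 and 0.0217), and by 1.04 and 0.53 without wild-type replicate 3. *UBI4* shares its ubiquitin sequence with the ribosomal fusion genes *RPL40A*, *RPL40B* and *RPS31*, so the assignment of its reads is uncertain. *DSK2* (1.07 ± 0.26) and *DDI1* (0.65 ± 0.20), which shuttle ubiquitinated proteins to the proteasome, and *UFD1* (0.64 ± 0.20) and *SHP1* (0.60 ± 0.20), cofactors of the segregase Cdc48, were called higher in *fab1∆* cells (SE), with 0.69, 0.36, 0.33 and 0.31 without wild-type replicate 3. *UBI4* was also called higher in *fab1∆* than in *atg18∆* cells, by 0.95, and in *atg18∆* against wild-type cells limma called 0 of the 15 genes, with 0 at an unadjusted p under 0.05. *CDC48* itself, whose promoter holds the element, was not called, with a difference of 0.50 ± 0.21 (SE, limma adjusted p = 0.0929), and was called without wild-type replicate 3, with 0.19 ± 0.068 (SE, limma adjusted p = 0.0339).

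The 4 known activators of *RPN4* gave 0 calls in any mutant against wild-type cells with all libraries and no correction for length. Their differences from wild-type cells were 0.29, 0.33 and 0.30 in *atg18∆*, *fab1∆* and *vph1∆* cells for the heat shock factor *HSF1*, 0.28, 0.31 and 0.25 for *YAP1*, 0.33, 0.14 and 0.34 for *PDR1*, and 0.30, 0.31 and 0.32 for *PDR3*. With limma 0 of them had an unadjusted p under 0.05, and the median of all genes, 0.25 to 0.27 in the same comparisons, was of the same size. The differences of these 4 genes without wild-type replicate 3 in *fab1∆* cells ran from -0.083 to 0.070, and there too 0 were called. With the length trend removed, *PDR3* was called higher in *fab1∆* cells, by 0.17 both with all libraries and without that one (limma adjusted p = 0.00306 and 0.00279).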

How the data were processed

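RNA of 16 yeast cultures was sequenced and the authors quantified it per transcript with Salmon (version 0.8.1 in the submitters' processing notes, whereas the study's methods name another version) against the Ensembl SacCer3 annotation. The deposited values are TPM, a length-scaled share of each library's transcripts, which sum to 1000000 in each library and keep no read depth, so the depth is unknown and no counting interval is given. The labels call the RNA polyA, whereas the protocol describes no polyA selection. The kit keeps strand, but the strand setting of the quantification is not given in the sources used here. Groups and replicate numbers were taken from the labels, and no 2 libraries held identical values.

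Genes with a mean of at least 1 TPM over the 16 libraries (6404 of 6844) were tested with limma 3.58.1 in R 4.3.3 on log2(TPM + 1), in 1 fit of all 16 libraries with empirical Bayes moderation along an intensity trend and with Benjamini-Hochberg adjustment over all genes at 0.05. Differences are on that scale, which understates the change of genes with low TPM. The study's own count model could not be run on TPM. The test was run on simulated data with independent normal noise for each gene. These held no library that stood apart and no length trend, so the check does not cover those features. Exact permutation tests over libraries were run in SciPy 1.17.1 under Python 3.11.15, permutation p-values of correlations used 100000 resamples, and figures were drawn with matplotlib 3.10.9. Promoter windows were read from the R64 genome by start codon, and gene lengths and positions come from its RefSeq annotation, in which none of the genes described here overlaps another.

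The members and the 3 other lists (18 assembly and accessory genes, 15 ubiquitin and shuttle genes, and 4 activators of *RPN4*) were chosen with earlier results of these data known. Genes named in the text were *RPN4*, the members that passed the threshold in a mutant against wild-type cells, those with the smallest p, the most and least abundant member of each subunit group, the genes of the other lists that passed, and *UMP1*, *UBI4*, *CDC48*, *HSF1*, *YAP1*, *PDR1* and *PDR3*. *SCL1*, *PUP1* as a catalytic subunit, *RPN2*, *RPN6*, *RPT1*, *SEM1* and *PRE8* in *vph1∆* cells were added after their values were seen. Alternatives were pseudocounts of 0.1 and 5, no filter and a mean of at least 10 TPM, median scaling, quantile normalization, fits of 2 strains alone, no trend, the replicate number or replicates 1 and 2 against 3 and 4 as a term, and leaving out each library. Removal of a trend with gene length (loess, span 0.5, on log2 length) was added after the data were seen.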

Additional observations from a re-analysis of the deposited data

Results flagged for a closer look

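In 9 of 68 groups of 4 libraries, a library's distance from the nearest other exceeded the 95% limit of Dixon's test for 4 values. Chance gives this in about 1 of 20 groups, and 8 of the 9 were wild-type replicate 3. The groups are not independent, since they share libraries and some are sums or means that contain the single genes. The 8 are thus not separate observations. In wild-type replicate 3 the summed TPM of the 32 subunits was 1731, against 2911 to 3043 in the other wild-type libraries. The mean TPM of the base genes was 41.7 there, against 69.9 to 75.6, that of the alpha ring genes 68.7, against 121 to 122, and that of the beta ring genes 77.8, against 130 to 132. *PRE4* had 59.6 TPM, against 114 to 115, *PRE3* 82.4 TPM, against 144 to 148, *PRE7* 66.7 TPM, against 97.4 to 98.6, and *PRE8* 67.5 TPM, against 111 to 116. The lid genes and *RPN4* were not among the 9, although both were lowest in the same library. The remaining group was the beta ring mean of *atg18∆* cells, with 137 TPM in replicate 1, against 132 to 133 TPM in the other 3.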

How the results depend on the processing

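The depth behind the TPM values is unknown, the 4 libraries per strain limit the precision, and wild-type replicate 3, which stands apart, is part of the spread against which all 6 comparisons were tested. Over 29 alternatives and 71 gene results, 1807 values kept their direction and their side of the threshold, 185 no longer passed it, 7 newly passed it and 51 changed sign; the cause was not tested.

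The median member difference from wild-type cells in *atg18∆*, *fab1∆* and *vph1∆* cells was -0.022, 0.11 and -0.065 with median scaling, 0.045, 0.14 and 0.014 with quantile normalization, and 0.022, 0.10 and -0.026 with the length trend removed. Without wild-type replicate 3 it was -0.015, 0.11 and -0.060 with median scaling and 0.0075, 0.088 and -0.043 with the length trend removed. When each library was left out in turn, the medians ranged over 0.046 to 0.38, 0.22 to 0.54 and 0.027 to 0.36 for these 3 comparisons.

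The number of members past the threshold in *fab1∆* against wild-type cells was 0 in the fit of those strains alone. In *vph1∆* against wild-type cells the number was 2 without wild-type replicate 3, both with median scaling and with the length trend removed. All of these were lower, against 7.65% and 9.53% of all genes called lower. In *fab1∆* against *atg18∆* cells the number was 11 with median scaling, 11 with quantile normalization and 21 in the fit of 2 strains alone. It was 1 without the trend and 8 with the length trend removed. Without wild-type replicate 3, it was 17 with median scaling and 11 with the length trend removed. Over all genes, median scaling called 1110 higher and 1467 lower, and the fit of 2 strains alone called 3190. Without wild-type replicate 3, 1614 were higher and 1973 lower with median scaling, and 1564 and 1947 with the length trend removed. In *vph1∆* against *atg18∆* cells the number was 1 in the fit of 2 strains alone, where 417 of all genes were called. Without wild-type replicate 3, it was 1 with median scaling and 4 with the length trend removed. Over all genes these 2 fits called 421 higher and 385 lower, and 668 higher and 587 lower. In *vph1∆* against *fab1∆* cells the number was 2 with no filter, 14 with median scaling and 12 with quantile normalization. It was 22 in the fit of 2 strains alone and 13 with the length trend removed. Without wild-type replicate 3, it was 22 with either median scaling or the length trend removed. Over all genes, median scaling called 1178 higher and 866 lower, and the fit of 2 strains alone called 2777. Without wild-type replicate 3, 1685 were higher and 1439 lower with median scaling, and 1745 and 1372 with the length trend removed. For the other settings named here the count over all genes is not given. With single libraries left out, the counts ranged from 0 to 0 for *atg18∆*, 9 to 22 for *fab1∆* and 0 to 3 for *vph1∆* against wild-type cells, 1 to 20 for *fab1∆* and 0 to 2 for *vph1∆* against *atg18∆* cells, and 0 to 21 for *vph1∆* against *fab1∆* cells.

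With the replicate block, 15 members passed in *fab1∆* against wild-type cells and 1 in *fab1∆* against *atg18∆* cells. Deviations of same-numbered libraries correlated at -0.125 to 0.444 over 24 pairs, 16 of them over 0.1. In 12 of the 24 pairs the library correlated best with its own number, so single numbers were not taken to pair the libraries. The best match mostly stayed within replicates 1 and 2 or within replicates 3 and 4. Exceptions were number 1 in *vph1∆* against wild-type cells, best with 3, and number 2 in *vph1∆* against *fab1∆* cells, best with 4. The main fit and the exact tests held no term for these sets of replicates, so any difference between them is part of the spread.

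The genes that changed sign did so as follows. With median scaling, *RPN4* was at -0.019 and *UMP1* at -0.24 in *atg18∆* cells, *PRE1* at -0.025, *HSF1* at -0.0025, *YAP1* at -0.018, *PDR1* at -0.19 and *PDR3* at -0.017 in *fab1∆* cells, and *HSF1* at -0.0088 and *YAP1* at -0.058 in *vph1∆* cells, all against wild-type cells. With quantile normalization, *RPN4* was at -0.0072 and *UMP1* at -0.14 in *atg18∆* cells, *YAP1* at -0.0097 and *PDR1* at -0.18 in *fab1∆* cells, and *HSF1* at -0.0036 and *YAP1* at -0.038 in *vph1∆* cells. With the length trend removed, *RPN4* was at -0.046, *UMP1* at -0.058, *HSF1* at -0.034, *YAP1* at -0.032 and *PDR3* at -0.029 in *atg18∆* cells, *RPN13* at -0.010 and *PRE1* at -0.036 in *fab1∆* cells, and *HSF1* at -0.017 and *YAP1* at -0.071 in *vph1∆* cells. With median scaling and without wild-type replicate 3, *RPN4* was at -0.047, *UMP1* at -0.051, *HSF1* at -0.030, *YAP1* at -0.035 and *PDR3* at -0.010 in *atg18∆* cells, *HSF1* at -0.040, *YAP1* at -0.056, *PDR1* at -0.19 and *PDR3* at -0.044 in *fab1∆* cells, and *HSF1* at -0.046, *YAP1* at -0.095 and *PDR3* at -0.011 in *vph1∆* cells. With the length trend removed and without that library, *RPN13* was at 0.0048, *RPN4* at -0.038, *UMP1* at -0.0043, *HSF1* at -0.037, *YAP1* at -0.031 and *PDR3* at -0.025 in *atg18∆* cells, and *HSF1* at -0.021 and *YAP1* at -0.070 in *vph1∆* cells. With single libraries left out, *RPN13* ranged from -0.049 to 0.020 in *atg18∆* cells and from -0.047 to 0.022 in *vph1∆* cells, *UMP1* from -0.0029 to 0.071 in *atg18∆* cells, *PDR1* from -0.083 to 0.30 in *fab1∆* cells and *YAP1* from -0.0089 to 0.39 in *vph1∆* cells. None of these had passed the threshold except *RPN13* and *PRE1* in *fab1∆* cells.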
